A study of Mus musculus with 12 samples.

Results

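Genes of sterol synthesis, sensing, uptake and efflux were followed in Eµ-Myc lymphoma, a mouse B cell lymphoma in which an immunoglobulin heavy chain enhancer drives Myc. The 31 genes were chosen by name and role, with earlier results of these data known. They come from the mevalonate and cholesterol pathway, its SREBP sensor, low density lipoprotein (LDL) uptake and sterol transport. All 31 were found among the 56748 gene IDs of the count files. They fall into 7 enzymes of the mevalonate arm, 11 of the squalene and sterol arm, 5 genes of sterol sensing and 8 of uptake, transport, storage and efflux. Poly(A) RNA was sequenced from 12 libraries of this one lymphoma line. Cells straight from culture gave 4 libraries (culture). Cells sorted from lymph nodes of C57BL/6J mice gave 4 libraries 11 days after injection in a model of spread through lymphatic vessels (lymphatic), and 4 libraries 18 days after injection in a model of spread through the blood (hematogenous). Route and day change together and cannot be told apart. The sort gate, the injected cell dose, the age of the mice and the culture medium with its serum are not given in the sources used here. Nothing says that the 4 libraries of a group came from 4 animals or flasks, so each p-value reflects library-to-library spread, which may be technical. For the cultured cells the tissue label also reads lymph node, and their group was taken from the title.

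Animal cells build cholesterol from acetyl-CoA through mevalonate, the isoprenoids, squalene and lanosterol. When membrane sterol is low, Scap escorts the SREBP transcription factors out of the endoplasmic reticulum, they are cut to their active form, and they raise transcription of the synthesis enzymes and of LDL uptake. When sterol is plentiful, the Insig proteins hold the Scap and SREBP complex back, while oxysterols activate the nuclear receptors LXR, which raise efflux transporters. Dividing lymphocytes need sterol for new membrane, and activated B cells are known to raise this pathway.

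Total assigned counts ran from 5286775 to 25302016 per library, and Abca1, the scarcest of the 31 genes in culture, rested on 58 counts in culture, 378 in the lymphatic and 547 in the hematogenous group. Levels are CPM (counts scaled by library total and TMM factor), given as mean ± SD over 4 libraries, and differences are log2 changes ± SE from edgeR with Benjamini-Hochberg adjustment over 13535 tested genes at a threshold of 0.05. The B cell gene Pax5 was high in every library (329.5 to 849 CPM). Markers of T cells and macrophages were scarce but higher in the lymph node groups. The 12 T cell markers summed to 1.18 to 3.92 CPM in culture, 24.1 to 111 in the lymphatic and 7.55 to 20.2 in the hematogenous group, and 12 and 9 of them rose against culture. The 13 macrophage markers summed to 17.5 to 22.5, 35.5 to 90.6 and 29.2 to 34.8 CPM, where 7 were tested, 5 and 4 rose and 2 fell in each lymph node group, and lymphatic 4 held the highest value of either list. Trbc2, C1qa and Lyz2 had 0 counts in culture, where Cd3e had 4 and Adgre1 had 3. The 6 dendritic cell markers (14.7 ± 2.44, 9.16 ± 2.60 and 9.02 ± 2.03 CPM summed) and the 5 erythroid markers (17.3 ± 8.70, 6.97 ± 5.81 and 4.11 ± 1.30) were on average highest in culture. The stromal gene Col1a1 had 5, 7 and 0 counts and the endothelial gene Cdh5 68, 95 and 146 counts in the culture, lymphatic and hematogenous groups. Lymphatic 4 also stood furthest from its group, with a chi-square over genes of 136 to 240 per degree of freedom against lymphatic 1 to 3, which differed from each other by 12.6 to 49.8.

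Transcripts of sterol synthesis held a much smaller share of the RNA of lymphoma cells in lymph nodes than in culture, after either route. Of 18 enzymes, 17 fell in both lymph node groups and 0 rose, and the exception was Ebp in both. The 18 enzymes summed to 3905, 3888, 3974 and 3763 CPM in culture 1 to 4, to 825, 929, 1071 and 867 CPM in lymphatic 1 to 4, and to 872, 703, 925 and 864 CPM in hematogenous 1 to 4. The summed level was 23.8% of culture in the lymphatic and 21.7% in the hematogenous group. Of the 5 sensing genes 3 fell in the lymphatic and 4 in the hematogenous group. Of the 8 genes of uptake, transport, storage and efflux 2 fell and 3 rose in the lymphatic and 1 fell and 3 rose in the hematogenous group. Over all tested genes, 13.0% were called lower and 13.4% higher in the lymphatic group, and 13.9% in each direction in the hematogenous group.

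Over all 31 genes, 22 fell and 3 rose in each lymph node group, called by edgeR, which is 80.6% of the genes against 26.4% of all tested genes called in the lymphatic and 27.8% in the hematogenous group. All 31 passed the filter on low counts, and the list was made with earlier results of these data known. The median log2 change of the 31 genes was −1.65 in the lymphatic and −1.92 in the hematogenous group, where the median of all tested genes was 0.04 and 0.00. In CPM, 25 genes did not overlap between lymphatic and culture libraries and 28 did not overlap between hematogenous and culture libraries, against 30.1% and 43.6% of all tested genes. Both comparisons use the same 4 culture libraries. Falls of at least 2 on the log2 scale were met by 8 of the 31 genes in the lymphatic and 15 in the hematogenous group, against 1.63% and 2.56% of all tested genes. Leaving out single libraries kept the number of falls between 21 and 23 in the lymphatic and between 21 and 24 in the hematogenous group. In bulk RNA fewer cells of a type and less RNA per cell cannot be told apart.

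**Figure D1:**
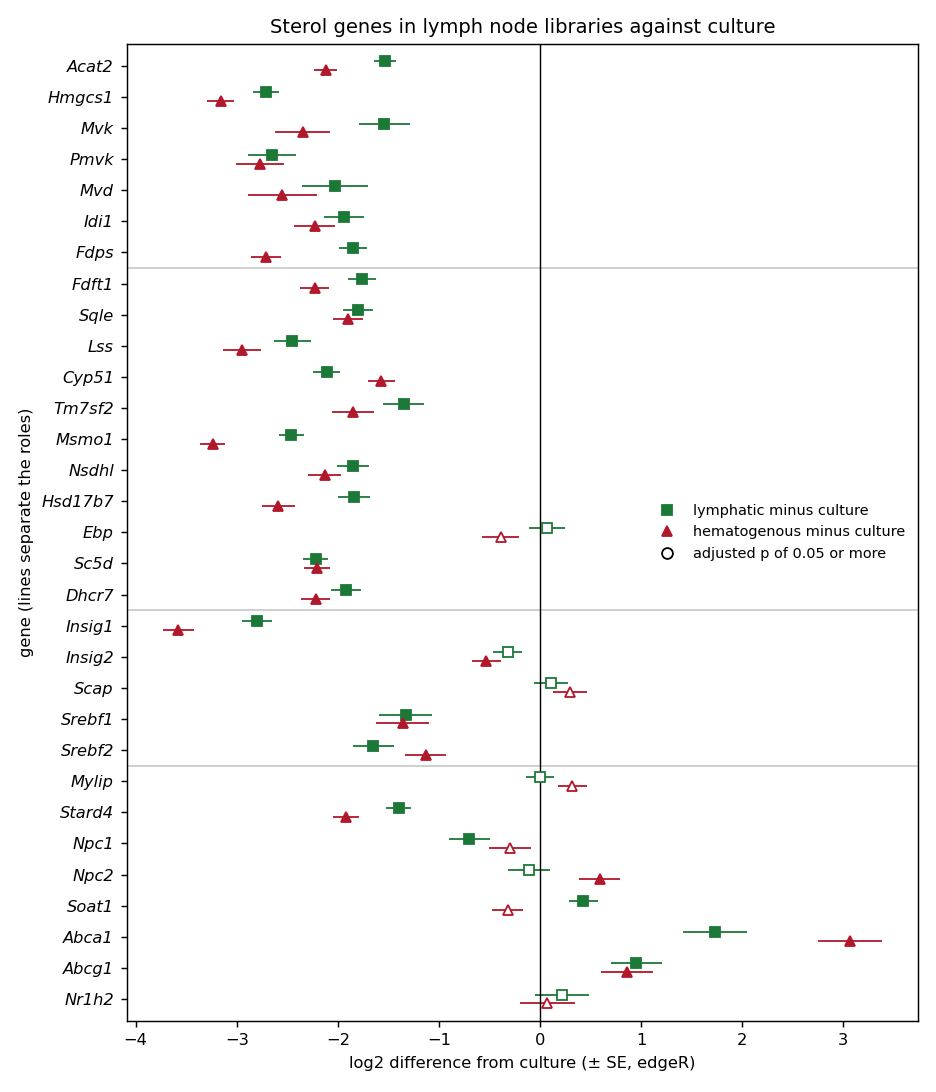
Log2 difference from culture (± SE, edgeR, x axis) of each of the 31 sterol genes (y axis, ordered by role) in lymphatic (green squares) and hematogenous libraries (red triangles), 4 libraries a group; open symbols did not pass the threshold and both groups share the culture libraries. Enzymes other than Ebp lie between −3.24 and −1.35, and Abca1 lies furthest to the right, at 1.73 and 3.07.

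Promoter sequences are shown for 5 genes that span the response, namely 2 enzymes that fell steeply (Hmgcs1 and Msmo1), the sensor with the largest fall (Insig1), the enzyme without a call (Ebp) and the transporter with the largest rise (Abca1). Each is the RefSeq window of 300 bases, from 250 before to 50 after the gene start, on GRCm38.p6, read 5′ to 3′ along the gene. Capitals mark letters found on either strand of TCACNNCAC, a loose core of the sterol regulatory element bound by SREBP proteins, of CCAAT, the box bound by NF-Y, and of GGGCGG, the box bound by Sp1, where a CCAAT box and the core share 1 base in Msmo1.
Hmgcs1 (chr13:119690101-119690400, plus strand): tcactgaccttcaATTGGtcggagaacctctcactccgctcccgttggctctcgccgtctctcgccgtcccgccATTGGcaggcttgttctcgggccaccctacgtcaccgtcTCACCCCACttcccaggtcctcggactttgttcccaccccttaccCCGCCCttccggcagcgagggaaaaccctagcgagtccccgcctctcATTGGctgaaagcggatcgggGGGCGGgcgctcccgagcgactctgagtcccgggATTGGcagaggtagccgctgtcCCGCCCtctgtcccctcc
Msmo1 (chr8:64733529-64733828, minus strand): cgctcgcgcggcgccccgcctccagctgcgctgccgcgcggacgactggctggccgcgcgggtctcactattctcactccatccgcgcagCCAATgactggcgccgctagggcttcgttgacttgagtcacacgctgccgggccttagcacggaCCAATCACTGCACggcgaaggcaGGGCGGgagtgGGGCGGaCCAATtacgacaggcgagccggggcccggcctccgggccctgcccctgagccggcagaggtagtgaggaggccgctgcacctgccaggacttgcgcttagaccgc
Insig1 (chr5:28071162-28071461, plus strand): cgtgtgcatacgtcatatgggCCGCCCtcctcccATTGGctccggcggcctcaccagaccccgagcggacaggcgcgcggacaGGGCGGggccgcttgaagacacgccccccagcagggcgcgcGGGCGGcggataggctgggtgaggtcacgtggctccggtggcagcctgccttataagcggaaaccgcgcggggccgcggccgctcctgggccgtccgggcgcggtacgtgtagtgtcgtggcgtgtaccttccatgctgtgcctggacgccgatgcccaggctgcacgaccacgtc
Ebp (chrX:8193463-8193762, minus strand): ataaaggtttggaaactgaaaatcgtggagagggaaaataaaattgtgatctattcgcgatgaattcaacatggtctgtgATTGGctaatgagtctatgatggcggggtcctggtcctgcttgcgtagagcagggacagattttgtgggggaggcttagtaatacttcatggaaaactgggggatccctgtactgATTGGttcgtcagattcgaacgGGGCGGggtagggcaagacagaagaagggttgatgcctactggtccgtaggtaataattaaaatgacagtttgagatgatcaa
Abca1 (chr4:53159846-53160145, minus strand): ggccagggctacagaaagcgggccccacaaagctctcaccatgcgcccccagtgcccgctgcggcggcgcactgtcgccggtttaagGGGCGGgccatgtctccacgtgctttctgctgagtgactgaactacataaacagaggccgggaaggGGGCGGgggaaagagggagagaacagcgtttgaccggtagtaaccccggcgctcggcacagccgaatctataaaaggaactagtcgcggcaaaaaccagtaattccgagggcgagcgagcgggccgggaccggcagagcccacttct

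Windows were found for 25 of the 31 genes, and Fdps, Fdft1, Sqle, Stard4, Npc1 and Abcg1 had no entry. TCACNNCAC was present in 4 of 15 enzyme windows, those of Hmgcs1, Msmo1, Hsd17b7 and Dhcr7, or 26.7%, against 4.38% of tested genes with a window, and in 0 of the other 10 genes. The stricter TCACNCCAC, which every such window would also hold as TCACNNCAC, was found in Hmgcs1 alone among the 25, against 1.40% of tested genes. CCAAT was present in 14 of 15 enzymes, 93.3%, against 43.5%, and in 7 of the other 10 genes. GGGCGG was present in 14 of 15 enzymes against 68.5% of tested genes, and in 9 of the other 10. The window of Ebp holds both boxes, as do those of most enzymes that fell, and the window of Abca1 holds GGGCGG only. These letters were chosen with the windows in view, a gene counts once when any of its windows holds them, and a match is a description of the sequence only.

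The mevalonate arm fell as a whole, from the first condensation to farnesyl diphosphate, with all 7 enzymes lower in both lymph node groups (13.0% and 13.9% of all tested genes were called lower). Hmgcs1, which condenses acetoacetyl-CoA into HMG-CoA, had the highest level of them per kb of exon in every group. Hmgcs1 stood at 579, 578, 608 and 564 CPM in culture 1 to 4. In lymph nodes it stood at 84.3, 93.1, 109 and 69.9 CPM in lymphatic 1 to 4 and 68.6, 61.6, 64.5 and 66.7 CPM in hematogenous 1 to 4. All lymph node libraries were below every culture library, by log2 −2.71 ± 0.128, adjusted p = 1.05e-08 in the lymphatic and −3.16 ± 0.131, adjusted p = 2.02e-09 in the hematogenous group. Pmvk stood at 167, 153, 134 and 139 CPM in culture 1 to 4. Its lymph node levels were 20.1, 13.0, 27.8 and 34.0 CPM in lymphatic 1 to 4 and 20.9, 21.0, 25.6 and 19.6 CPM in hematogenous 1 to 4. This kinase of mevalonate phosphate kept 15.9% and 14.7% of its culture mean (log2 −2.65 ± 0.235, adjusted p = 2.35e-06, and −2.77 ± 0.238, adjusted p = 1.08e-06), the steepest fall of the arm after Hmgcs1.

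Mvd stood at 62.1, 63.2, 46.1 and 45.7 CPM in culture 1 to 4. Cells from nodes gave 10.1, 5.02, 19.6 and 18.7 CPM in lymphatic 1 to 4 and 10.6, 9.01, 9.98 and 7.03 CPM in hematogenous 1 to 4. The decarboxylase Mvd makes isopentenyl diphosphate, and its lymphatic libraries spread over a wide range while staying below culture (log2 −2.03 ± 0.328, adjusted p = 0.000436, and −2.55 ± 0.342, adjusted p = 6.58e-05). Mvk stood at 27.9, 26.4, 24.9 and 27.0 CPM in culture 1 to 4. It was then at 7.51, 4.59, 12.6 and 12.1 CPM in lymphatic 1 to 4 and 5.46, 4.63, 6.07 and 4.56 CPM in hematogenous 1 to 4. Mvk, the mevalonate kinase, was the scarcest enzyme of the arm per kb of exon. Its lymphatic libraries had the same order as those of Mvd, with 2 lowest and 3 highest, and overlapped the hematogenous range (log2 −1.54 ± 0.255, adjusted p = 0.000539, and −2.35 ± 0.271, adjusted p = 1.71e-05). Fdps stood at 198, 193, 201 and 175 CPM in culture 1 to 4. Lymph node libraries held 41.3, 49.2, 60.2 and 61.9 CPM in lymphatic 1 to 4 and 25.1, 27.8, 30.2 and 34.6 CPM in hematogenous 1 to 4. Fdps makes farnesyl diphosphate, the branch point to sterols and prenylated proteins, and its 3 groups did not overlap (log2 −1.85 ± 0.142, adjusted p = 6.12e-07, and −2.71 ± 0.148, adjusted p = 2.01e-08).

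Acat2 stood at 119, 110.3, 122 and 107 CPM in culture 1 to 4. The nodes gave levels of 35.0, 40.0, 41.8 and 41.3 CPM in lymphatic 1 to 4 and 28.6, 22.7, 27.5 and 26.2 CPM in hematogenous 1 to 4. Acat2, the cytosolic thiolase at the head of the arm, had the smallest fall of the 7 in lymphatic (log2 −1.53 ± 0.109, adjusted p = 3.48e-07) and hematogenous libraries (−2.12 ± 0.113, adjusted p = 1.56e-08), and again no libraries of the 3 groups overlapped. Idi1 stood at 128, 118, 125 and 129 CPM in culture 1 to 4. Sorted cells stood at 33.0, 35.9, 42.3 and 19.3 CPM in lymphatic 1 to 4 and 26.4, 20.9, 30.7 and 28.5 CPM in hematogenous 1 to 4. Idi1, which isomerises isopentenyl diphosphate, was lowest in lymphatic 4, and lymph node libraries lay well below culture (log2 −1.94 ± 0.197, adjusted p = 8.85e-06, and −2.23 ± 0.201, adjusted p = 1.68e-06).

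**Figure D2:**
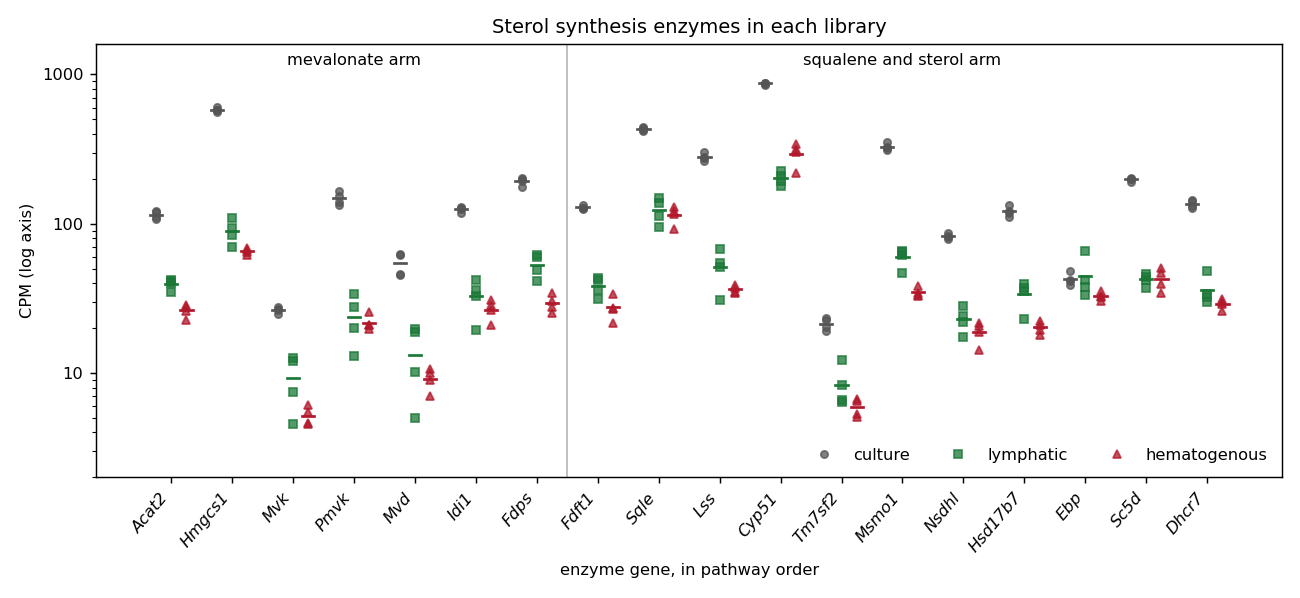
CPM of the 18 sterol synthesis enzymes (log axis, y) in pathway order (x) in each library of culture (grey circles), lymphatic (green squares) and hematogenous cells (red triangles), with short lines at group means. Culture lies above both lymph node groups for every enzyme but Ebp, where lymphatic 4 at 66.2 CPM is the highest library.

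In the squalene and sterol arm 10 of 11 enzymes fell in each lymph node group, against 13.0% and 13.9% of all tested genes called lower. Msmo1 stood at 326, 310.1, 351 and 322 CPM in culture 1 to 4. In lymph nodes it stood at 46.8, 64.4, 61.5 and 65.5 CPM in lymphatic 1 to 4 and 32.8, 33.5, 34.5 and 38.2 CPM in hematogenous 1 to 4. Msmo1, which oxidises the methyl groups removed after lanosterol, had the steepest fall of all enzymes in hematogenous libraries and the groups did not overlap (log2 −2.46 ± 0.120, adjusted p = 1.27e-08 in lymphatic and −3.24 ± 0.125, adjusted p = 9.94e-10 in hematogenous). Lss stood at 265, 301, 280.0 and 274 CPM in culture 1 to 4. Its lymph node levels were 51.4, 54.9, 67.3 and 30.9 CPM in lymphatic 1 to 4 and 38.6, 34.5, 34.9 and 37.0 CPM in hematogenous 1 to 4. Lss folds the squalene epoxide into lanosterol, and lymphatic 4 was the lowest library for it (log2 −2.45 ± 0.183, adjusted p = 5.15e-07, and −2.95 ± 0.188, adjusted p = 7.70e-08).

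Cyp51 stood at 866, 879.9, 881 and 856 CPM in culture 1 to 4. Cells from nodes gave 179, 208, 226 and 194 CPM in lymphatic 1 to 4 and 315, 219, 343 and 300.3 CPM in hematogenous 1 to 4. Among the 18 listed enzymes, Cyp51, the lanosterol demethylase, was the most abundant in every group. Alone among them, its fall was smaller in hematogenous than in lymphatic libraries by the test of the routes given below (log2 −2.11 ± 0.135, adjusted p = 1.50e-07 in lymphatic and −1.57 ± 0.133, adjusted p = 9.57e-07 in hematogenous). Sc5d stood at 189, 199, 204 and 198 CPM in culture 1 to 4. It was then at 41.9, 46.3, 44.1 and 37.3 CPM in lymphatic 1 to 4 and 39.7, 34.3, 50.4 and 46.7 CPM in hematogenous 1 to 4. Sc5d, a late desaturase, fell to 21.5% and 21.7% of its culture mean (log2 −2.22 ± 0.127, adjusted p = 5.79e-08, and −2.21 ± 0.128, adjusted p = 3.15e-08). Hsd17b7 stood at 111, 122, 134 and 118 CPM in culture 1 to 4. Lymph node libraries held 35.7, 39.8, 37.1 and 23.0 CPM in lymphatic 1 to 4 and 19.4, 18.0, 22.4 and 20.9 CPM in hematogenous 1 to 4. Hsd17b7, a ketoreductase of the sterol arm, fell further in hematogenous libraries (log2 −1.84 ± 0.157, adjusted p = 1.67e-06 in lymphatic and −2.59 ± 0.164, adjusted p = 6.96e-08 in hematogenous). Its lowest lymphatic library, number 4, was still above the highest hematogenous library.

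Fdft1 stood at 134, 128, 128 and 126 CPM in culture 1 to 4. The nodes gave levels of 31.2, 36.2, 43.1 and 41.8 CPM in lymphatic 1 to 4 and 26.8, 21.7, 34.1 and 27.2 CPM in hematogenous 1 to 4. Fdft1, the squalene synthase that commits farnesyl diphosphate to sterols, lost most of its transcripts in both groups (log2 −1.76 ± 0.142, adjusted p = 1.02e-06, and −2.23 ± 0.146, adjusted p = 1.01e-07). Nsdhl stood at 81.3, 82.3, 87.1 and 79.2 CPM in culture 1 to 4. Sorted cells stood at 22.1, 24.0, 28.1 and 17.5 CPM in lymphatic 1 to 4 and 18.8, 14.3, 20.6 and 21.8 CPM in hematogenous 1 to 4. Nsdhl, the decarboxylating dehydrogenase, fell (log2 −1.85 ± 0.158, adjusted p = 1.71e-06, and −2.13 ± 0.162, adjusted p = 3.50e-07), as did Dhcr7, a late reductase of the pathway. Dhcr7 stood at 145, 131, 141 and 127 CPM in culture 1 to 4. In lymph nodes it stood at 33.8, 32.2, 47.9 and 29.7 CPM in lymphatic 1 to 4 and 29.8, 29.0, 31.5 and 26.2 CPM in hematogenous 1 to 4, with no overlap between culture and lymph nodes (log2 −1.92 ± 0.144, adjusted p = 5.21e-07, and −2.22 ± 0.147, adjusted p = 1.04e-07). Sqle, the squalene epoxidase and a rate-limiting step, ranged over 415 to 446 CPM in culture, 95.6 to 149 in the lymphatic and 92.8 to 129.7 CPM in the hematogenous group (log2 −1.80 ± 0.146, adjusted p = 1.02e-06, and −1.90 ± 0.147, adjusted p = 3.84e-07). Tm7sf2, a sterol reductase whose role Lbr shares, was the scarcest enzyme per length, at 21.4 ± 1.94, 8.38 ± 2.69 and 5.90 ± 0.839 CPM, and had the smallest fall in lymphatic libraries among enzymes called lower (log2 −1.35 ± 0.201, adjusted p = 0.000233, and −1.85 ± 0.211, adjusted p = 1.54e-05).

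Ebp, the sterol isomerase, was the only enzyme without a call in either comparison. Ebp stood at 48.3, 41.9, 41.5 and 39.1 CPM in culture 1 to 4. Its lymph node levels were 33.4, 37.8, 41.7 and 66.2 CPM in lymphatic 1 to 4 and 30.3, 32.7, 35.4 and 32.1 CPM in hematogenous 1 to 4. Lymphatic 1 and 2 were below the culture range, lymphatic 3 within it and lymphatic 4 above it, and the hematogenous libraries were all below culture. The log2 change was 0.07 ± 0.181, adjusted p = 0.816 in the lymphatic and −0.39 ± 0.183, adjusted p = 0.138 in the hematogenous group. Without lymphatic 4 the lymphatic value turned to −0.19 (adjusted p = 0.180) and Ebp was called lower in hematogenous libraries (−0.39, adjusted p = 0.00536), also when only the 8 libraries of those groups were fitted (adjusted p = 0.00214).

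The falls were uneven enough to change the make-up of the pathway. Scaled per kb of exon, Cyp51 held 21.8% ± 0.414 of the summed level of the 18 enzymes in culture, 20.5% ± 1.05 in the lymphatic and 32.9% ± 2.59 in the hematogenous group. Hmgcs1 went from 14.0% ± 0.338 to 8.68% ± 1.27 and 7.11% ± 0.658. The share of Ebp went from 2.04% ± 0.152 to 8.68% ± 2.73 and 7.07% ± 0.867, and from rank 16 of 18 to rank 4 in both lymph node groups. Between the neighbouring demethylation enzymes Cyp51 and Msmo1, the ratio of levels per kb was 3.69, 3.95, 3.49 and 3.70 in culture, 5.33, 4.50, 5.11 and 4.13 in the lymphatic and 13.4, 9.08, 13.8 and 10.9 in the hematogenous group 1 to 4, without overlap of the groups. This pair was picked after its values were seen and the ratio was not tested.

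**Figure D3:**
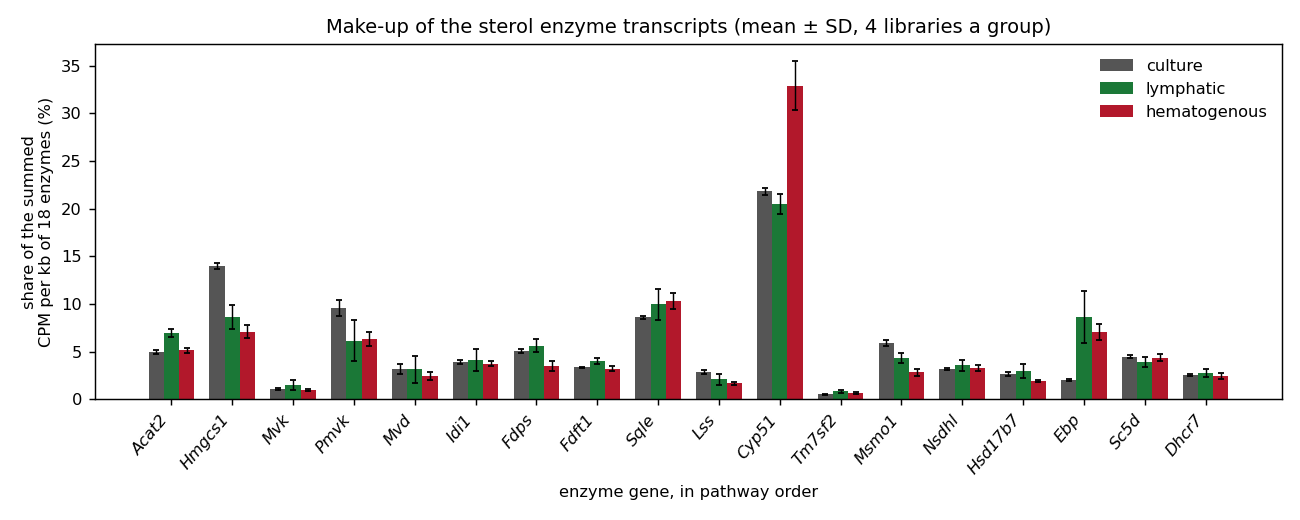
Share of each enzyme (x axis, pathway order) in the summed CPM per kb of exon of the 18 sterol enzymes (y axis, %), as mean ± SD over 4 libraries of culture (grey), lymphatic (green) and hematogenous cells (red). Cyp51 has the largest share in every group and reaches 32.9% in hematogenous libraries, and Ebp goes from 2.04% in culture to 8.68% and 7.07%.

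Among the sensing genes, Insig1 had the largest fall of all 31 genes in both lymph node groups. It is a retention factor of the SREBP complex and itself a known SREBP target. Insig1 stood at 539.7, 528, 551 and 527 CPM in culture 1 to 4. Cells from nodes gave 76.4, 90.4, 82.9 and 58.9 CPM in lymphatic 1 to 4 and 46.5, 35.3, 46.8 and 51.9 CPM in hematogenous 1 to 4. Culture, lymphatic and hematogenous libraries formed 3 separate ranges (log2 −2.80 ± 0.148, adjusted p = 2.69e-08 in lymphatic and −3.58 ± 0.154, adjusted p = 2.64e-09 in hematogenous). Insig2 stood at 20.1, 17.4, 23.9 and 21.1 CPM in culture 1 to 4. It was then at 14.9, 18.7, 16.6 and 15.9 CPM in lymphatic 1 to 4 and 12.4, 13.6, 16.8 and 14.2 CPM in hematogenous 1 to 4. Its paralog Insig2 was called lower in hematogenous libraries (log2 −0.53 ± 0.145, adjusted p = 0.0127, and 0.0501 without culture 3), at −0.32 ± 0.142, adjusted p = 0.113 in lymphatic libraries, and the difference between those changes was not called (adjusted p = 0.303). Per kb the ratio of Insig1 to Insig2 was 29.6 ± 3.50 in culture, 5.24 ± 0.732 in the lymphatic and 3.58 ± 0.659 in the hematogenous group. This pair too was picked after its values were seen, and the ratio was not tested.

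Both SREBP genes fell. Srebf2 stood at 367, 408, 321 and 334 CPM in culture 1 to 4. Lymph node libraries held 105, 75.5, 175 and 100.3 CPM in lymphatic 1 to 4 and 182, 145, 158 and 168 CPM in hematogenous 1 to 4. Srebf2 encodes the form that mainly drives sterol synthesis, and lymphatic 3 was the lymphatic library within the hematogenous range (log2 −1.65 ± 0.205, adjusted p = 5.10e-05, and −1.13 ± 0.202, adjusted p = 0.000735). Srebf1 stood at 91.9, 94.3, 57.6 and 81.6 CPM in culture 1 to 4. The nodes gave levels of 27.3, 16.6, 46.1 and 39.5 CPM in lymphatic 1 to 4 and 33.2, 36.4, 31.2 and 25.8 CPM in hematogenous 1 to 4. Srebf1, which encodes the forms that mainly drive fatty acid synthesis and is also a known LXR target, fell in both groups (log2 −1.33 ± 0.261, adjusted p = 0.00188, and −1.36 ± 0.263, adjusted p = 0.00136). Scap stood at 57.3, 65.0, 49.3 and 49.9 CPM in culture 1 to 4. Sorted cells stood at 58.9, 42.9, 75.5 and 61.6 CPM in lymphatic 1 to 4 and 68.5, 77.0, 72.6 and 54.3 CPM in hematogenous 1 to 4. Scap, the escort, was not called and its 3 groups overlapped. Its log2 changes were 0.11 ± 0.168, adjusted p = 0.674 in the lymphatic and 0.30 ± 0.168, adjusted p = 0.212 in the hematogenous group. The latter was at adjusted p = 0.0206 when only the culture and hematogenous libraries were fitted.

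The 8 genes of uptake, transport, storage and efflux did not move in one direction. Stard4 stood at 350.1, 355, 386 and 377 CPM in culture 1 to 4. In lymph nodes it stood at 128, 155, 163 and 109 CPM in lymphatic 1 to 4 and 99.8, 87.8, 104 and 96.1 CPM in hematogenous 1 to 4. Stard4, a soluble sterol carrier and known SREBP target, fell like the enzymes (log2 −1.40 ± 0.126, adjusted p = 2.65e-06, and −1.92 ± 0.128, adjusted p = 1.12e-07). Abca1 stood at 1.79, 1.91, 1.40 and 1.27 CPM in culture 1 to 4. Its lymph node levels were 4.94, 6.66, 5.99 and 3.49 CPM in lymphatic 1 to 4 and 12.4, 20.5, 8.22 and 12.2 CPM in hematogenous 1 to 4. Abca1, which exports cholesterol to lipid-poor apolipoprotein, rose 3.32-fold in the lymphatic and 8.41-fold in the hematogenous group by the fitted change, and the 3 groups did not overlap (log2 1.73 ± 0.317, adjusted p = 0.00118, and 3.07 ± 0.318, adjusted p = 6.21e-06). Abcg1 stood at 5.60, 6.25, 3.33 and 4.96 CPM in culture 1 to 4. Cells from nodes gave 9.27, 8.57, 10.2 and 10.7 CPM in lymphatic 1 to 4 and 6.74, 14.1, 7.93 and 7.41 CPM in hematogenous 1 to 4. Abcg1, which exports sterol to high density lipoprotein, was above every culture library in all lymph node libraries, with hematogenous 2 apart from its group (log2 0.95 ± 0.252, adjusted p = 0.0127, and 0.86 ± 0.256, adjusted p = 0.0211). In hematogenous libraries the call of Abcg1 was lost without culture 3, culture 4 or hematogenous 2, the last at log2 0.55 (adjusted p = 0.0842), and Abca1 kept its call in each such fit.

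Abca1 and Abcg1 are also strongly expressed by macrophages. The summed macrophage markers were above culture (17.5 to 22.5 CPM) in both hematogenous (29.2 to 34.8 CPM) and lymphatic libraries (35.5 to 90.6 CPM). Lymphatic 4, with the highest sum, held 3.49 CPM of Abca1, the lowest lymphatic value, and 10.7 CPM of Abcg1, the highest lymphatic value. In hematogenous libraries the macrophage genes C1qa and Adgre1 stood at 0 to 0.253 and 0.161 to 0.783 CPM and Lyz2 at 7.03 to 14.0 CPM. The part of macrophages in the levels of Abca1 and Abcg1 was not tested. The stromal and endothelial list summed to 76.2 to 80.7 CPM in culture, 80.2 to 115 in the lymphatic and 139.6 to 168 CPM in the hematogenous group, nearly all of it Pecam1 (136 to 163 CPM in hematogenous libraries), and its part in these results was not tested.

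Npc2 stood at 192, 174, 184 and 169.6 CPM in culture 1 to 4. It was then at 134, 136, 146 and 251 CPM in lymphatic 1 to 4 and 339.6, 203, 235 and 306 CPM in hematogenous 1 to 4. Npc2 hands cholesterol to Npc1 for exit from the lysosome, and every hematogenous library was above culture while lymphatic 1 to 3 were below it and lymphatic 4 above it. It rose in hematogenous libraries close to the threshold (log2 0.59 ± 0.205, adjusted p = 0.0462, and without a call in 8 of 12 fits that left out 1 library, at adjusted p = 0.0522 to 0.154). It was at −0.11 ± 0.204, adjusted p = 0.730 in lymphatic libraries and called lower there without lymphatic 4 (−0.39, adjusted p = 0.0368). Lymphatic 4 also held the highest summed T cell and macrophage markers, and their part in its Npc2 level was not tested. Npc1, the membrane partner, fell in lymphatic libraries (log2 −0.70 ± 0.205, adjusted p = 0.0218, 0.0614 without culture 2), where lymphatic 4 was lowest at 6.69 CPM. It ranged over 14.6 to 17.2 CPM in hematogenous and 19.0 to 22.1 CPM in culture libraries (log2 −0.30 ± 0.206, adjusted p = 0.326). Of 18 other fits, 2 called Npc1 lower in hematogenous libraries. These were the fit without lymphatic 4 (−0.29, adjusted p = 0.0434) and that of only culture and hematogenous libraries (−0.29, adjusted p = 0.0381).

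Soat1 stood at 7.93, 10.6, 9.57 and 8.87 CPM in culture 1 to 4. Lymph node libraries held 12.2, 12.3, 12.9 and 12.1 CPM in lymphatic 1 to 4 and 8.03, 6.23, 8.22 and 6.84 CPM in hematogenous 1 to 4. Soat1, which esterifies cholesterol for storage, was highest in lymphatic libraries (log2 0.43 ± 0.148, adjusted p = 0.0449 against culture, without a call in 9 of 12 fits that left out 1 library, at adjusted p = 0.0539 to 0.144) and stood at −0.32 ± 0.153, adjusted p = 0.141 in hematogenous libraries. Mylip, a ubiquitin ligase that limits lipoprotein uptake and a known LXR target, stood at 24.7 ± 4.67, 24.8 ± 2.27 and 30.9 ± 1.29 CPM in the 3 groups. It was not called, though its hematogenous libraries were all above the culture ones (log2 0.00 ± 0.142, adjusted p = 0.992, and 0.32 ± 0.143, adjusted p = 0.115, or 0.0380 when only the culture and hematogenous libraries were fitted). Nr1h2, the widely expressed LXR, was not called either, and its lymphatic libraries ran from 14.4 to 46.2 CPM around the 21.4 to 32.0 CPM of culture (log2 0.22 ± 0.269, adjusted p = 0.587, and 0.07 ± 0.272, adjusted p = 0.887). The 4 known LXR targets named among the 31 genes thus differed in direction. In the fit of all 12 libraries Abca1 and Abcg1 were higher, Srebf1 was lower and Mylip had no call. Targets outside the 31 genes were not weighed here.

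**Figure D4:**
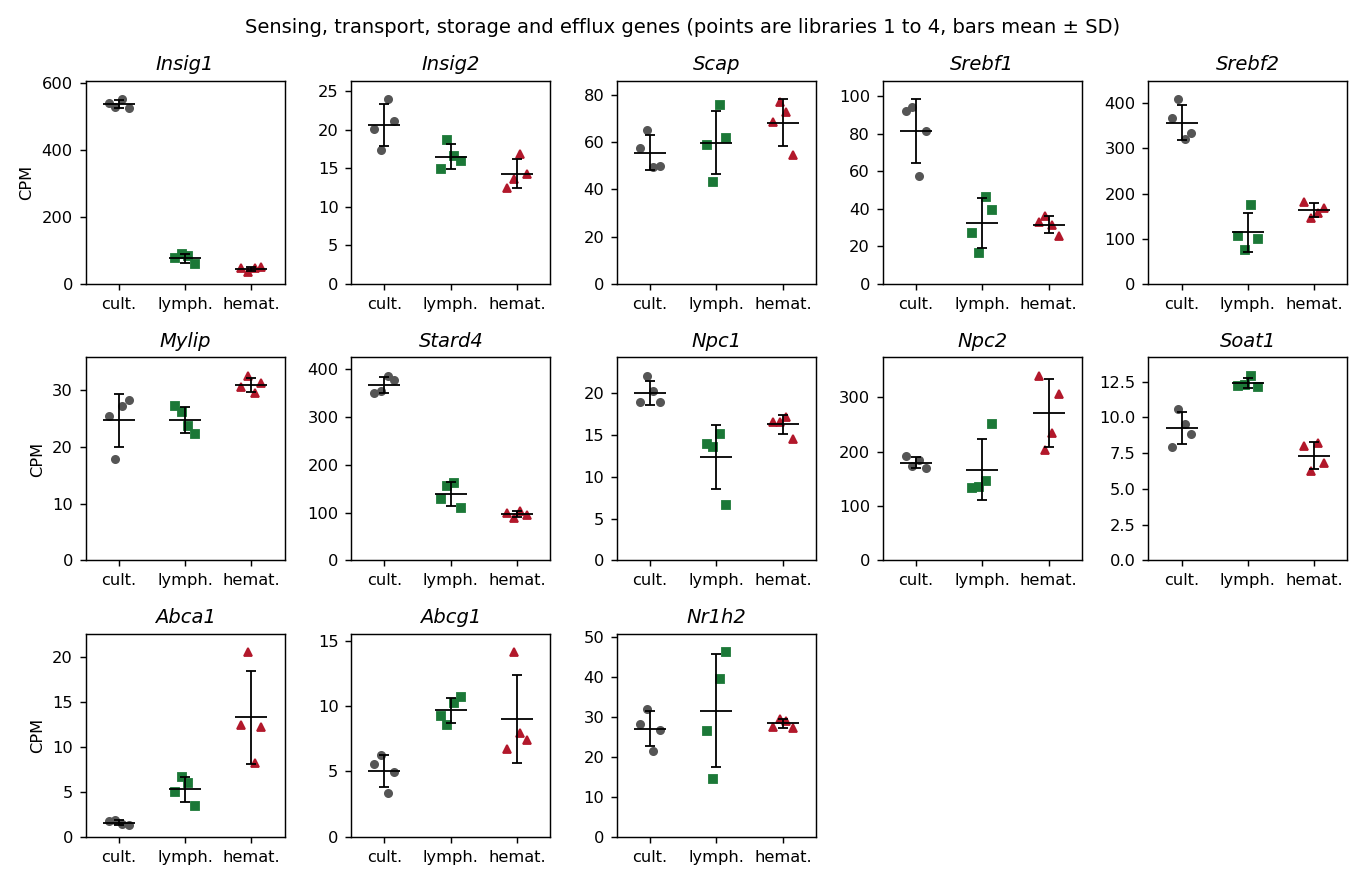
CPM (y axes from 0) of the 13 sensing, uptake, transport, storage and efflux genes in each culture, lymphatic and hematogenous library (points, libraries 1 to 4 from left to right), with group mean ± SD. Insig1 and Stard4 form 3 separate ranges from high to low, Abca1 does so from low to high, and lymphatic 4 stands apart at 251 CPM of Npc2.

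Between the lymph node groups, 13 of the 31 genes differed, 10 higher and 3 lower in lymphatic than in hematogenous libraries, or 41.9% against 22.3% of all tested genes (11.4% higher and 10.9% lower). A difference of at least 2 on the log2 scale with a call toward hematogenous libraries was met by 0 of the 31 genes and by 0.650% of all tested genes. Among the enzymes the hematogenous level was the lower one in 7 of 8 called. In CPM 10 genes did not overlap between these groups, against 24.6% of all tested genes. The median log2 difference of the 18 enzymes was 0.46, where that of all tested genes was 0.03. Among synthesis and sensing genes, the calls with the lowest adjusted p were those of Fdps (log2 0.86 ± 0.142, adjusted p = 0.000922), Msmo1 (0.78 ± 0.117, adjusted p = 0.000484), Insig1 (0.78 ± 0.142, adjusted p = 0.00177), Acat2 (0.59 ± 0.110, adjusted p = 0.00206) and Hsd17b7 (0.75 ± 0.158, adjusted p = 0.00422), and each of these 5 kept its call in all 18 other fits.

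Stard4 was also lower in hematogenous libraries (log2 0.52 ± 0.125, adjusted p = 0.00946), as were Hmgcs1 (0.45 ± 0.122, adjusted p = 0.0187), Fdft1 (0.47 ± 0.142, adjusted p = 0.0295) and Mvk (0.81 ± 0.268, adjusted p = 0.0440). The calls of Hmgcs1, Fdft1 and Mvk were fragile. Hmgcs1 was at adjusted p = 0.0577 without hematogenous 2 and 0.0536 without hematogenous 3, and Fdft1 at 0.0637 to 0.0926 without lymphatic 3 or hematogenous 1, 2 or 4. Mvk was at adjusted p = 0.0549 to 0.109 without any one of the culture or hematogenous libraries or lymphatic 3 or 4. Soat1 was higher in lymphatic libraries, by log2 0.76 ± 0.149, adjusted p = 0.00294, and kept its call in all 18 other fits.

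Cyp51 was the enzyme that went the other way, higher in hematogenous libraries (log2 −0.54 ± 0.130, adjusted p = 0.00922, 0.0517 when only the 8 lymph node libraries were fitted), though hematogenous 2 lay within the lymphatic range. Abca1 was higher in hematogenous libraries (log2 −1.34 ± 0.273, adjusted p = 0.00354), where its lowest library, at 8.22 CPM, was above the highest lymphatic one, at 6.66 CPM. Npc2 was higher there as well (log2 −0.70 ± 0.205, adjusted p = 0.0260), but with lymphatic 4 inside the hematogenous range and the call lost without lymphatic 1, 2 or 3 or hematogenous 1 or 4 (adjusted p = 0.0583 to 0.0902). Lss, Idi1, Nsdhl and Dhcr7 were not called (log2 0.49 ± 0.178, adjusted p = 0.0609 for Lss) and became so without lymphatic 4, at log2 0.66, 0.47, 0.39 and 0.36, while Mvd was called without lymphatic 2 (0.80, adjusted p = 0.0256) and Ebp without lymphatic 1 (0.57, adjusted p = 0.0382). Srebf2 was at −0.52 ± 0.201, adjusted p = 0.0801 and was called without lymphatic 3 (−0.80, adjusted p = 0.00190). For Sqle, Sc5d and Pmvk the log2 differences were 0.10 ± 0.142, −0.01 ± 0.124 and 0.11 ± 0.229.

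**Figure D5:**
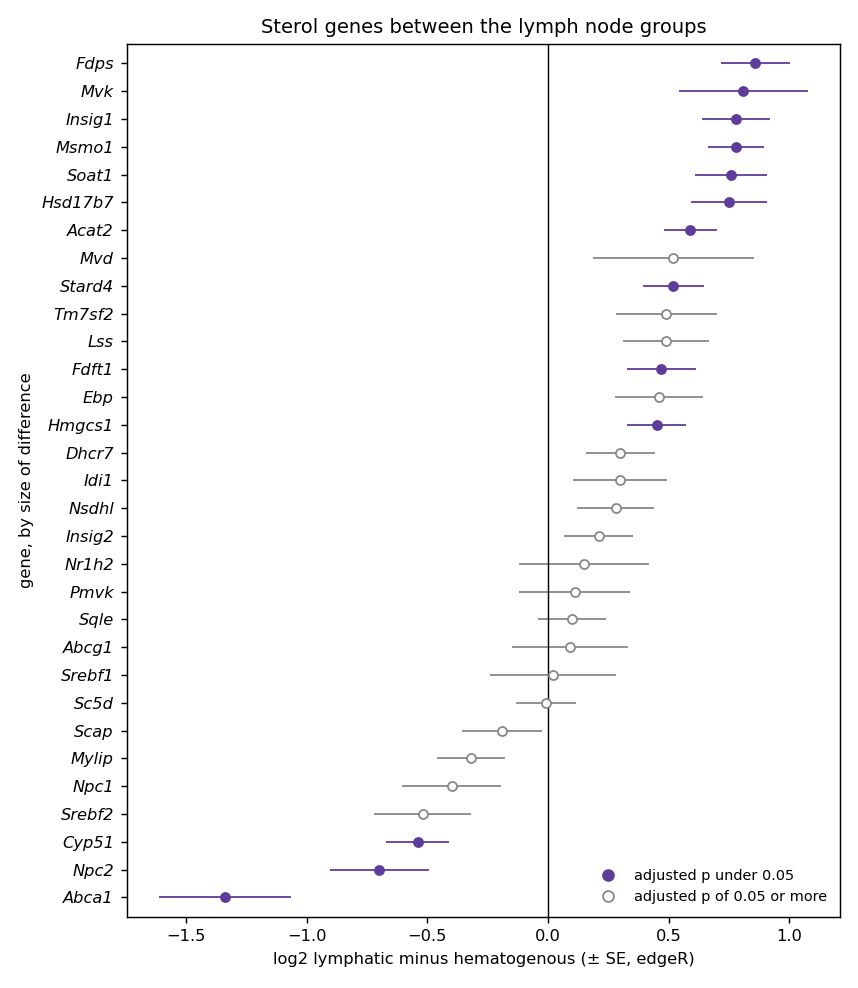
Log2 lymphatic minus hematogenous level (± SE, edgeR, x axis) of the 31 sterol genes ordered by size (y axis), with filled purple points for adjusted p under 0.05 and open grey points otherwise, 4 libraries a group. Fdps at 0.86 lies furthest to the lymphatic side and Abca1 at −1.34 furthest to the hematogenous side.

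A wider list of 56 other genes of uptake, sterol transport, SREBP processing, oxysterol and prenyl metabolism was less uniform, with 47 tested. Of these, 13 fell and 7 rose in lymphatic libraries (42.6% called, against 26.4% of all tested genes) and 16 fell and 3 rose in hematogenous libraries (40.4%, against 27.8%). Their median log2 changes were −0.12 and −0.25, beside 0.04 and 0.00 over all tested genes. The lipoprotein receptor Lrp8 (log2 −1.60 ± 0.289, adjusted p = 0.00105, and −1.70 ± 0.300, adjusted p = 0.000654) fell in both groups, as did the lipoprotein receptor Scarb1 (−1.12 ± 0.143, adjusted p = 6.89e-05, and −1.33 ± 0.145, adjusted p = 9.86e-06). Acss2, which makes acetyl-CoA from acetate, fell in both as well (−0.57 ± 0.173, adjusted p = 0.0256, and −2.01 ± 0.191, adjusted p = 2.90e-06).

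The largest rises of that list were of scarce genes, Lrp1 (2.87 ± 0.711, adjusted p = 0.00877, and 3.37 ± 0.706, adjusted p = 0.00237) from 4 counts in culture, and Nr1h3, the LXR of myeloid cells, in lymphatic libraries (1.86 ± 0.450, adjusted p = 0.00760, 0.552 to 1.87 CPM in mean). Both are expressed by macrophages, the macrophage marker sum was also higher in both groups, and its part in these rises was not tested. Between the routes 10 of the 47 were called, 21.3%, close to the 22.3% of all tested genes. Acss2 (1.43 ± 0.189, adjusted p = 0.000197), the sterol-binding Tmem97 (0.91 ± 0.155, adjusted p = 0.00119), the prenyl transferase subunit Rabggtb (0.86 ± 0.143, adjusted p = 0.00103) and the sterol carrier Stard5 (0.81 ± 0.183, adjusted p = 0.00635) were higher in lymphatic libraries. Rnf145 (−0.74 ± 0.121, adjusted p = 0.000898), a ubiquitin ligase of the endoplasmic reticulum, was higher in hematogenous libraries.

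Exons of other genes overlap some of the 31 in the GENCODE M21 annotation, and the strand setting of the counting is not given in the sources used here, so these levels are uncertain. Tm7sf2 shares 532 exon bases with Vps51 on the same strand and Fdps shares 1124 with Gm43738, a gene model with 7 counts in all. On the opposite strand Fdft1 shares 774 bases with Ctsb, Npc1 511 with Rmc1, Cyp51 166 with Akap9 and Srebf1 109 with Rai1. Acat2 has a near-identical neighbour, Acat3, whose reads could be split with it.

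Spread between libraries differed by group. The median coefficient of variation over the 31 genes was 6.36% in culture, 22.0% in the lymphatic and 13.6% in the hematogenous group, against 10.4%, 26.4% and 12.4% over all tested genes. Cyp51 in culture was the steadiest, at 1.33%, and Mvd in lymphatic libraries the most variable, at 52.3%. Lymphatic 3 held the highest lymphatic level in 18 of the 31 genes and the lowest in 0, while lymphatic 4 was lowest in 14 and highest in 7. Among hematogenous libraries, number 2 was lowest for 10 of 18 enzymes and number 3 highest for 10. Levels per kb ordered the 31 genes differently in each group. Cyp51 was first throughout, at 197, 45.7 and 66.6 CPM per kb in culture, lymphatic and hematogenous libraries. Insig1 went from second in culture (173) to rank 3 (24.9) and rank 6 (14.6), and Npc2 from rank 13 (33.1) to second (30.6 and 49.8). The lymphatic mean of Npc2 includes lymphatic 4, at 251 CPM against 134 to 146 CPM in lymphatic 1 to 3.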

How the data were processed

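Poly(A)-selected RNA of 12 libraries was read as single ends on a NextSeq 2000, per the labels' protocols. The deposited counts are whole reads per Ensembl gene ID that the authors made with Trimmomatic 0.39, HISAT2 2.1.0 and HTSeq 2.0.2 on GRCm39, per the submitters' processing notes. Reads without a gene (5 summary lines, 30.3 to 36.5% of a library) were left out. Symbols were matched by ID (91.8% of 56748 IDs). For symbols shared by IDs, the one with more counts was kept.

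Counts were tested with edgeR 4.0.16 (R 4.3.3), using filterByExpr, TMM and the quasi-likelihood test on all 12 libraries with 9 residual degrees of freedom, and Benjamini-Hochberg adjustment over 13535 genes at 0.05. The SE is the log2 change divided by the root of F, an approximation. CPM per kb uses merged GENCODE M21 exon lengths (GRCm38), another build than that of the counts. No coordinates of the count files were used. RefSeq promoter windows were searched by letters on both strands.

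The 31 genes, the other lists and the promoter motifs were chosen with earlier results of these data known. All 31 genes are named. Of the 56 other pathway genes, the 6 called with the largest absolute log2 change in each comparison are named, except some that are not reported here. Alternatives were RLE size factors, no low-count filter, DESeq2 1.42.0, limma-voom (limma 3.58.1), only the groups compared, a replicate block, and leaving out each library, 18 in all. Same-numbered libraries correlated at −0.181 to 0.0919 in their deviations from group means. These values gave no sign of pairing by number, but cannot show that the numbers mark no shared animal, day or batch. The main fit used no pairing. The tests were tried on simulated data with 200 changed genes. Total counts limit precision, and counting error is smallest in the deepest libraries.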

Additional observations from a re-analysis of the deposited data

Results flagged for a closer look

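Npc2 stood at 251 CPM in lymphatic 4, far above lymphatic 1 to 3 at 134 to 146 CPM. Abcg1 stood at 14.1 CPM in hematogenous 2, far above the other hematogenous libraries at 6.74 to 7.93 CPM. Both gaps exceeded Dixon's 95% critical value for 4 samples, and they are 2 of 93 groups of 4 examined, where chance flags about 1 in 20.

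The changes from culture differed between the lymph node groups, by edgeR's test of lymphatic against hematogenous libraries, for 13 of the 31 genes. Log2 lymphatic minus hematogenous was 0.59 for Acat2, 0.45 for Hmgcs1, 0.81 for Mvk, 0.86 for Fdps and 0.47 for Fdft1 in synthesis up to squalene. It was 0.78 for Msmo1, 0.75 for Hsd17b7 and −0.54 for Cyp51 in the sterol arm. It was 0.78 for Insig1, 0.52 for Stard4, 0.76 for Soat1, −0.70 for Npc2 and −1.34 for Abca1 among sensing, transport, storage and efflux genes. Route and day of collection cannot be told apart in these differences.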

How the results depend on the processing

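Over 18 other settings, 24 of the 31 genes kept direction and call in lymphatic against culture, 23 in hematogenous against culture and 13 between the routes. Leaving out 1 library gave 2 to 3 sterol genes higher and 21 to 23 lower in lymphatic, 1 to 3 higher and 21 to 24 lower in hematogenous libraries, and 7 to 13 higher and 2 to 3 lower between the routes. Over all genes it gave 1545 to 2995 higher and 1580 to 2935 lower in hematogenous libraries, and 930 to 2080 higher and 1072 to 2253 lower between the routes. The highest of these all-gene counts came without lymphatic 4 and the lowest between the routes without hematogenous 1. With only the 2 groups compared, 5 sterol genes and 3150 genes rose and 3194 fell in hematogenous libraries, and 1 sterol gene was lower and 910 genes were higher and 824 lower between the routes. The cause was not tested.

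Values near 0 changed sign without a call. In lymphatic against culture, Mylip was at 0.00 with DESeq2 and with only the 2 groups. Leaving out 1 library there gave −0.12 to 0.08 for Mylip, −0.19 to 0.18 for Ebp, −0.02 to 0.24 for Scap and −0.03 to 0.47 for Nr1h2, and −0.03 to 0.15 for Nr1h2 in hematogenous against culture. Between the routes, limma-voom gave 0.01 for Sc5d, −0.11 for Srebf1 and −0.01 for Nr1h2, and only the 2 groups gave 0.01 for Sc5d. Leaving out 1 library there gave −0.14 to 0.32 for Pmvk, 0.00 to 0.20 for Sqle, −0.11 to 0.08 for Sc5d, −0.19 to 0.24 for Srebf1, −0.05 to 0.39 for Abcg1 and −0.11 to 0.40 for Nr1h2.

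With a replicate block, 2 sterol genes were higher and 22 lower in each lymph node group, 9 were higher and 3 lower between the routes, and Srebf1 was at 0.00 between the routes. The block lost the calls of Soat1 in lymphatic (adjusted p = 0.0868) and Npc2 in hematogenous libraries (adjusted p = 0.0513) and of Mvk between the routes (adjusted p = 0.0712), all by edgeR.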
